A study of Mus musculus with 6 samples.

Results

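Genes that coat lipid droplets, break down the triglyceride stored in them, or carry out the last step of triglyceride synthesis were examined in mouse embryonic fibroblasts (MEFs) that had squeezed through narrow pores. The set was given by name and holds 10 genes, namely Plin2, Plin3, Plin4, Hilpda, Pnpla2, Abhd5, Lipe, Mgll, Dgat1 and Dgat2, out of 55335 genes in the count table. All 10 members were present and passed the filter on low counts, as 15881 genes did. After transmigration, transcripts of Hilpda, Dgat2, Mgll and Plin2 rose, by 10.6-fold, 5.49-fold, 4.49-fold and 1.96-fold. Plin4 fell by 0.54 on the log2 scale, a call that was lost in several alternative fits. The triglyceride lipase gene Pnpla2 and its coactivator gene Abhd5 did not pass the test.

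Both groups were MEFs labelled as a wild-type cell line, with 1 serum-containing growth medium given for all samples. Ctrl libraries came from the parental cells, and Confine libraries from cells collected on the far side of transwell membranes with 3 μm pores 15 h after seeding. Parental cells are not described as having been on a membrane, so passage through the pores cannot be told apart from culture on the insert or from selection of the cells able to pass. The study's transwell assay, described for another pore size, had serum only below the membrane, and if this also held here, the change of serum cannot be told apart from passage either. There were 3 columns for each group, but Confine replicates 1 and 2 held the same count in all 55335 genes and were counted as 1 sample, called Confine 1/2 here, beside Confine 3. Separate cultures are not stated in the labels, so p-values measure the spread between these samples, which may be technical.

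Lipid droplets are stores of triglyceride and sterol ester wrapped in a single layer of phospholipid, and perilipins are the proteins that coat them and control which enzymes reach the core. Lipolysis proceeds stepwise, with Pnpla2 (adipose triglyceride lipase) taking the first fatty acid from triglyceride, Lipe (hormone-sensitive lipase) cleaving diacylglycerol and Mgll (monoglyceride lipase) the remaining monoacylglycerol. Dgat1 and Dgat2 work in the opposite direction and add the last fatty acid to diacylglycerol. Cells take up and store fatty acid in droplets under many forms of stress, low oxygen among them, and Hilpda is a known target of the hypoxia-inducible factors in many cell types.

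Library depth ranged from 22287210 to 32537550 counts, so that 3 counts corresponded to 0.101 to 0.128 CPM (counts scaled to a common library size by TMM normalization, which sets most genes to no change). Across all genes tested, 23.0% had an adjusted p under 0.05 by the quasi-likelihood test of edgeR, adjusted over all genes by the Benjamini-Hochberg method, 12.8% higher and 10.2% lower in Confine. With an absolute log2 fold change above 1.5 also required, 8.00% passed. Where libraries were scaled by their size only, the log2 fold change of the median gene moved by -0.21, and the split changed from 2035 higher and 1619 lower to 1444 higher and 2805 lower. Of the fibroblast markers, 9 of 12 were tested, 5 rose and 1 fell. The summed level of all 12, made up mostly of Vim, Col1a1 and Col1a2, was 8763 to 9629 CPM in Ctrl and 15747 to 16520 CPM in Confine. Among the untested markers, Thy1 and Lum had at most 2 counts in any library. Dcn had 2, 0 and 0 counts in Ctrl and 27 and 3 in Confine 1/2 and 3. Adipocyte markers summed to 5.67 to 8.39 CPM in Ctrl and 6.49 to 8.66 CPM in Confine, with 3 of 8 at 0 in every library and only Fabp4 tested, which did not pass. Macrophage markers summed to 7.27 to 8.46 CPM and 18.4 to 25.9 CPM, with 2 of 3 tested markers higher and 1 lower, while the defining markers Ptprc and Adgre1 had at most 2 counts in any library. The part of these marker shifts in the values below was not tested. In bulk RNA, a change in the number of cells of one kind and a change in RNA per cell cannot be told apart.

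Of the 10 members, 4 rose (Plin2, Hilpda, Mgll and Dgat2), 1 fell (Plin4) and 5 did not pass, at an adjusted p under 0.05, where 23.0% of all genes passed. Hilpda, Mgll and Dgat2 also passed the cutoff of 1.5, above which 4.89% of all genes rose, and no member fell past it, as 3.11% of all genes did. The groups did not overlap in 7 members, against 49.5% of all genes. The Confine values lay above all Ctrl values in 5 members, where 25.9% of all genes did so, and below them in 2 members, where 23.6% of all genes did so. The groups overlapped in Plin3, Pnpla2 and Lipe. The median log2 fold change of the members was 0.48, and that of all genes tested was -0.0021 with quartiles of -0.38 and 0.40. With 3 libraries against 2, a two-sided exact permutation test over libraries cannot give a p below 0.1.

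**Figure D1:**
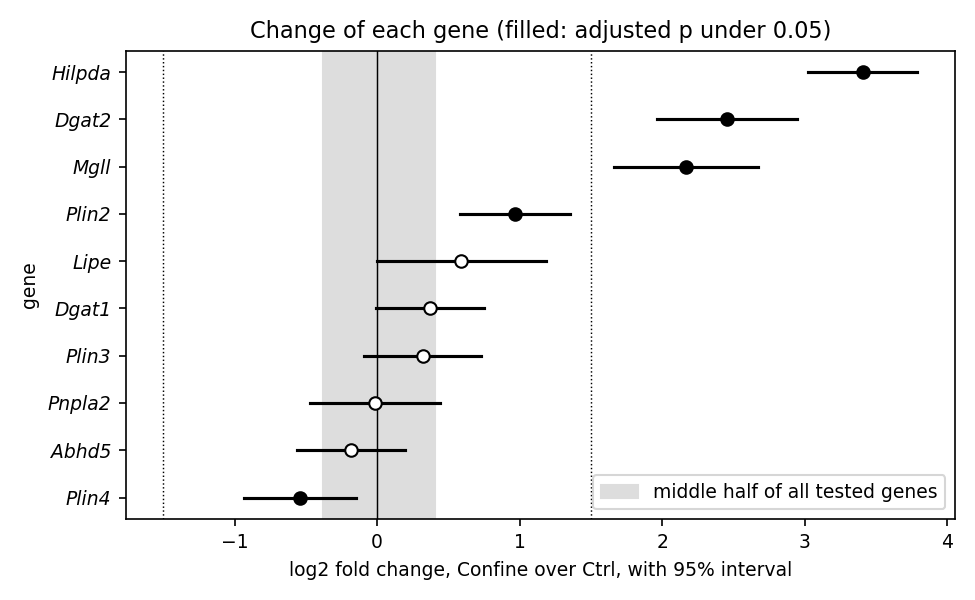
The horizontal axis gives the log2 fold change of Confine over Ctrl from edgeR with its 95% interval and the vertical axis the 10 genes, with filled points for an adjusted p under 0.05. Hilpda lies farthest to the right at 3.41, Dgat2 and Mgll lie above 2, and the interval of Pnpla2 runs from -0.47 to 0.44.

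Plin2, or adipophilin, is the perilipin found on droplets of most cell types. Its gene lies on the minus strand of chromosome 4 (chr4:86648386-86670060, GRCm38, identifier ENSMUSG00000028494.12). Ctrl 1, 2 and 3 had 8867, 6351 and 7694 counts (306, 240 and 327 CPM), and Confine 1/2 and 3 had 17870 and 13498 counts (604 and 536 CPM). Both Confine libraries were above every Ctrl library, and the lower of them exceeded the highest Ctrl library by more than the Ctrl libraries differed among themselves. The mean level was 291 ± 45.5 CPM (SD, n = 3) in Ctrl and 570 ± 47.9 CPM (SD, n = 2) in Confine. This gave a log2 fold change of 0.97 (SE, the standard error, 0.18, 95% interval 0.58 to 1.36, edgeR adjusted p = 7.29e-04), which ranked 1606 among all genes tested. With scaling by library size only it was 0.76 (edgeR adjusted p = 0.00384). An annotated pseudogene shares 259 bp of the Plin2 sequence and had no counts in any library.

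Plin3, a perilipin that moves from the cytosol to newly formed droplets, was the next most abundant perilipin after Plin2. The gene lies on the minus strand of chromosome 17 (chr17:56277476-56292873, GRCm38). Ctrl 1, 2 and 3 had 5867, 4699 and 6381 counts (203, 178 and 271 CPM) and Confine 1/2 and 3 had 8296 and 6585 counts (280 and 261 CPM). Confine 3 was below Ctrl 3, so the groups overlapped. The log2 fold change was 0.32 (SE 0.20, 95% interval -0.09 to 0.73, edgeR adjusted p = 0.272). A repeat stretch of up to 135 bp in its transcripts matches 76 other genes at 95% identity or more, and where reads of that stretch were counted is not known.

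Plin4, a perilipin best known from adipocytes and muscle, lies on the same chromosome and strand (chr17:56100591-56109803, GRCm38). It had 841, 923 and 814 counts in Ctrl (29.1, 34.9 and 34.6 CPM) and 657 and 576 counts in Confine (22.2 and 22.9 CPM). Both Confine libraries were below all Ctrl libraries. The log2 fold change was -0.54 (SE 0.19, 95% interval -0.94 to -0.15, edgeR adjusted p = 0.0432). Without Ctrl 1 the edgeR adjusted p was 0.0577, without Ctrl 3 it was 0.0817, without Confine 1/2 it was 0.234 and without Confine 3 it was 0.210, while the log2 fold change stayed between -0.63 and -0.50 whichever library was left out. Its exons overlap those of Hdgfl2, on the other strand, over 17 bp. Plin1, the adipocyte perilipin, had 1 count in Ctrl 3 and none elsewhere, and Plin5, the perilipin of oxidative tissues, had none in any library, so neither was tested.

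Per transcript length, the makeup of the perilipin transcripts shifted towards Plin2. In TPM (counts divided by exon length and scaled to the same sum in every library), Plin2 made up 59.8%, 56.3% and 54.5% of the perilipin sum in Ctrl 1, 2 and 3 and 68.8% and 67.6% in Confine 1/2 and 3. Plin3 made up 36.7%, 38.7% and 42.0% in Ctrl and 29.6% and 30.6% in Confine. Plin4 made up 3.45%, 4.98% and 3.51% in Ctrl and 1.54% and 1.75% in Confine. The groups did not overlap for any of these shares, which sum to 100% in a library and are therefore tied to each other, and they are given as a description with no test.

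**Figure D2:**
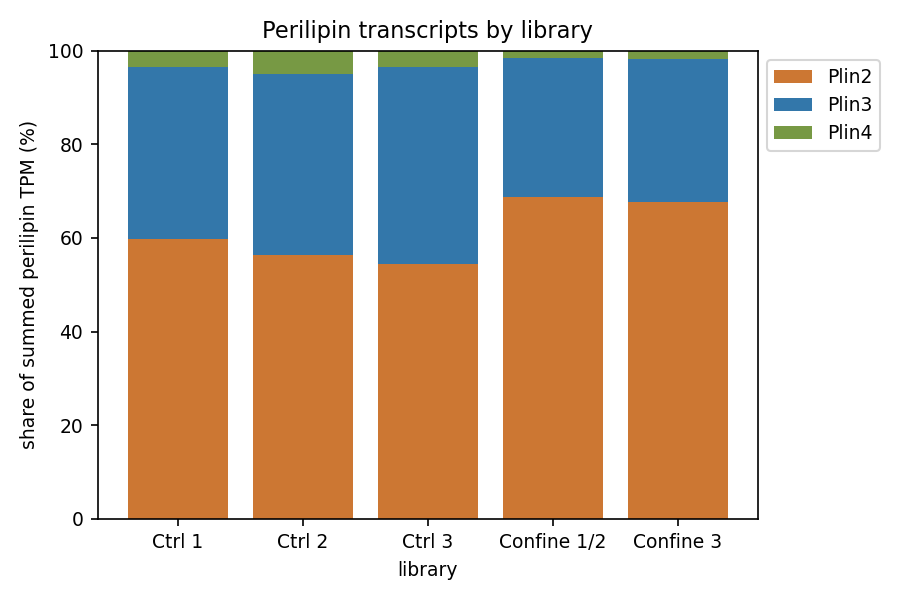
Each bar is 1 library and its segments are the shares of Plin2, Plin3 and Plin4 in the summed TPM of the perilipins, in percent. The Plin2 segment takes 54.5% to 59.8% of the bar for Ctrl and 67.6% and 68.8% for Confine.

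Hilpda showed the largest change among the members. It encodes a small protein of the droplet surface that binds and inhibits Pnpla2, and it lies on the plus strand of chromosome 6 (chr6:29272488-29275446, GRCm38, identifier ENSMUSG00000043421.8). Ctrl 1, 2 and 3 had 1188, 1237 and 936 counts (41.0, 46.8 and 39.8 CPM), and Confine 1/2 and 3 had 13943 and 10874 counts (471 and 432 CPM). The groups were far apart relative to their spread, with a mean of 42.5 ± 3.70 CPM (SD, n = 3) in Ctrl and 451 ± 27.8 CPM (SD, n = 2) in Confine. That is a log2 fold change of 3.41 (SE 0.18, 95% interval 3.03 to 3.79, edgeR adjusted p = 2.47e-10), a fold of 10.6 with an interval of 8.14 to 13.8. It ranked 139 among all genes tested by log2 fold change. On the TPM scale, Hilpda moved from rank 1448 to rank 149 among all genes by level, with means of 108 ± 11.3 TPM (SD, n = 3) in Ctrl and 968 ± 85.5 TPM (SD, n = 2) in Confine. No stretch of at least 100 bp of its transcripts matched another gene at 95% identity, and no annotated exon of another gene overlaps it.

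**Figure D3:**
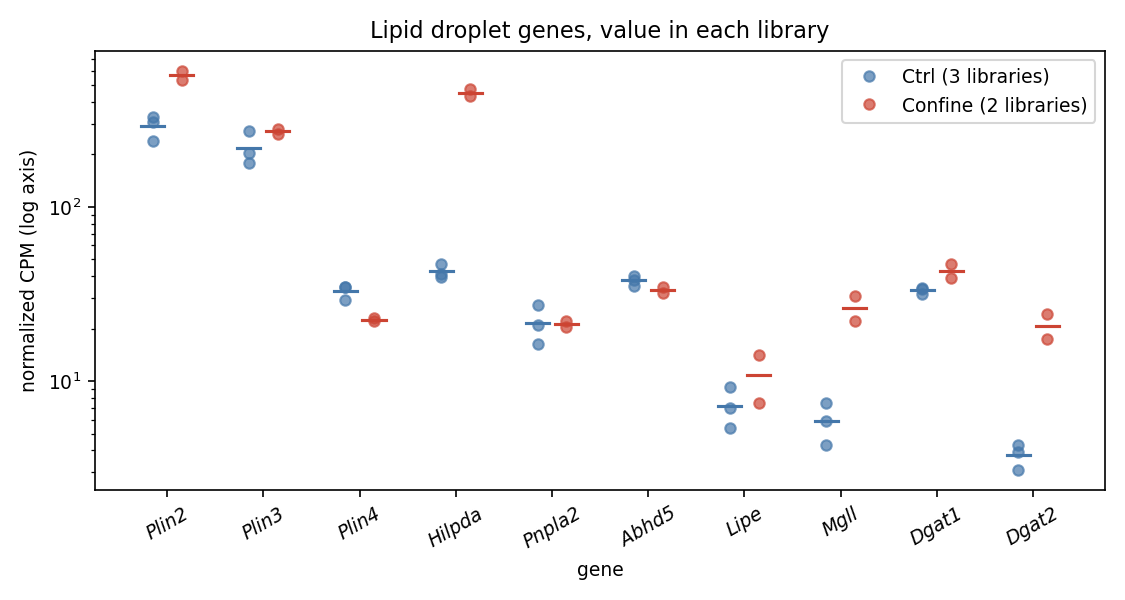
The vertical axis gives normalized CPM on a log scale for the 10 genes on the horizontal axis, with 1 point for each of the 3 Ctrl and 2 Confine libraries. The Confine points of Hilpda lie at 432 and 471 CPM, above Ctrl points at 39.8 to 46.8 CPM, while those of Pnpla2 lie within the Ctrl points.

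Promoter sequences in RefSeq (mouse build GRCm38.p6) run from 250 bases before to 50 bases after each annotated start. They were searched for the core letters bound by hypoxia-inducible factors, ACGTG and GCGTG, and for the E-box CACGTG, which contains ACGTG. Both strands were searched. Windows were found for 8 of the 10 members (Dgat1 and Dgat2 had none), 11 windows in all. Of all 32851 RefSeq windows, 43.8% hold ACGTG or GCGTG and 7.15% hold CACGTG. Among the 11 windows of the members, 7 held ACGTG or GCGTG and 3 held CACGTG. These counts are of windows and not of genes, since Hilpda, Lipe and Mgll have 2 windows each. The 2 Hilpda windows overlap and share a GCGTG. The genes with ACGTG or GCGTG in a window were Plin2, Hilpda, Abhd5, Lipe and Mgll. A match describes letters only and is no evidence of binding, and whether any match bears on the changes was not tested.

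Hilpda has 2 annotated starts, and its matches lie between them. They are shown because Hilpda moved the most, as 25 bases of the plus strand each, with the core in capitals, at chr6:29272505-29272529, chr6:29272573-29272597 and chr6:29272608-29272632, which places the cores at positions -111, -43 and -8 relative to the second start.
Hilpda core at -111: accgcgagccGCGTGctttccgtga
Hilpda core at -43: tggccagcggACGTGccccagggcg
Hilpda core at -8: ggttcggtacGCGTGcgcagtctcc
No core was found in the 250 bases before the first start.

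The region before the first start of Mgll (chr6:88724162-88724411, plus strand) holds GCGTG on one strand or the other 214 and 111 bases before the start, and CACGTG 44 bases before it. The Plin2 region (chr4:86670060-86670309, written along the minus strand) holds a core 86 bases before the start, and a CACGTG spans the start itself (chr4:86670048-86670073, same strand). Both are shown beside the region of Pnpla2 (chr7:141454938-141455187, plus strand), whose transcript did not pass the test and whose window holds neither core. Lipe and Abhd5 did not pass the test either, yet hold cores, which are given below. Capitals mark these cores as read on either strand.
Mgll: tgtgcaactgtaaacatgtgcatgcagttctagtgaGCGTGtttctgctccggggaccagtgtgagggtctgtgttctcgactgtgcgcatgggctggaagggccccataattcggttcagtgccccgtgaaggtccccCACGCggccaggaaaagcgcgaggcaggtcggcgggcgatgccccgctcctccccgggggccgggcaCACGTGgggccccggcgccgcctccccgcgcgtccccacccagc
Plin2: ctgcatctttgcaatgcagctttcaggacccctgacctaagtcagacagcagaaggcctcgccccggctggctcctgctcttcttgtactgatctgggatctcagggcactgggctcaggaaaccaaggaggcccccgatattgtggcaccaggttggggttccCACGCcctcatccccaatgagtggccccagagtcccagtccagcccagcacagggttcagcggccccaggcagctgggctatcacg
Plin2 across the start: gctgggctatCACGTGgctcggaggc
Pnpla2: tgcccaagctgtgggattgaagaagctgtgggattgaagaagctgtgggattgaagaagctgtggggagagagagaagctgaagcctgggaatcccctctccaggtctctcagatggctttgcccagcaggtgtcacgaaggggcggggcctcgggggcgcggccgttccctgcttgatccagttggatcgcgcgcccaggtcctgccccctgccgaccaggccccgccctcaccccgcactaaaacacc
The second window of Mgll held 7 further cores. For Lipe, which did not pass the test, the upstream one of its windows held CACGTG 155 bases and GCGTG 75 bases before the start. Abhd5, which did not pass the test, held GCGTG 18 bases before its start, and Plin3 and Plin4 held neither core.

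Pnpla2 encodes the lipase that starts triglyceride breakdown, and its transcript level was flat. The gene lies on the plus strand of chromosome 7 (chr7:141455198-141460743, GRCm38). Ctrl 1, 2 and 3 had 605, 431 and 639 counts (20.9, 16.3 and 27.2 CPM) and Confine 1/2 and 3 had 603 and 557 counts (20.4 and 22.1 CPM). Both Confine values fell inside the Ctrl range. The log2 fold change was -0.01 (SE 0.22, edgeR adjusted p = 0.974), and its 95% interval of -0.47 to 0.44 leaves room for changes in either direction of up to about that size.

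Abhd5 (CGI-58) activates Pnpla2 at the droplet, and lies on the plus strand of chromosome 9 (chr9:122351608-122381524, GRCm38). It had 1166, 930 and 899 counts in Ctrl (40.3, 35.1 and 38.2 CPM) and 1028 and 807 counts in Confine (34.7 and 32.0 CPM). The Confine values were just below the lowest Ctrl value. The log2 fold change was -0.18 (SE 0.18, 95% interval -0.56 to 0.20, edgeR adjusted p = 0.523). An antisense gene, A730085K08Rik, overlaps 950 bp of its exons and had at most 4 counts in any library. G0s2, which encodes another inhibitor of Pnpla2, had 2 counts in Ctrl 1 and none in the other libraries, and was not tested.

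Lipe, on the minus strand of chromosome 7 (chr7:25379527-25398710, GRCm38), was among the least abundant members. It had 155, 185 and 218 counts in Ctrl (5.35, 6.99 and 9.27 CPM) and 223 and 357 counts in Confine (7.53 and 14.2 CPM). Confine 3 was the highest library, while Confine 1/2 was below Ctrl 3. The log2 fold change was 0.59 (SE 0.28, 95% interval -0.00073 to 1.18, edgeR adjusted p = 0.146), and it was 0.07 without Confine 3 (edgeR adjusted p = 0.941) and 0.98 without Confine 1/2 (edgeR adjusted p = 0.0493). An antisense gene, 4732471J01Rik, overlaps its exons over 918 bp and had 96, 97 and 118 counts in Ctrl and 144 and 182 in Confine. The strand setting of the counting is not given in the sources used here, so reads of the pair may not have been told apart.

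Mgll encodes the last lipase of the sequence, which also degrades the endocannabinoid 2-arachidonoylglycerol, and was the lipase gene that rose. It lies on the plus strand of chromosome 6 (chr6:88724412-88828360, GRCm38, identifier ENSMUSG00000033174.17). Ctrl 1, 2 and 3 had 125, 156 and 175 counts (4.32, 5.90 and 7.44 CPM), and Confine 1/2 and 3 had 652 and 773 counts (22.03 and 30.7 CPM). Every Confine value was above every Ctrl value, with means of 5.89 ± 1.56 CPM (SD, n = 3) and 26.4 ± 6.13 CPM (SD, n = 2). Confine exceeded Ctrl by a log2 fold change of 2.17 (SE 0.24, 95% interval 1.66 to 2.67, edgeR adjusted p = 2.56e-06), a fold of 4.49 with an interval of 3.16 to 6.37. Tested against the cutoff of 1.5 itself (edgeR's glmTreat), Mgll had an adjusted p of 0.0590. Antisense gene Gm26588 overlaps 167 bp of its exons and had 3 counts in Confine 3 and none elsewhere.

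Both diacylglycerol acyltransferase genes were detected, but only Dgat2 passed the test. Dgat1 encodes the enzyme of the endoplasmic reticulum and lies on the minus strand of chromosome 15 (chr15:76502015-76511953, GRCm38). It had 911, 889 and 806 counts in Ctrl (31.5, 33.6 and 34.3 CPM) and 1382 and 978 counts in Confine (46.7 and 38.8 CPM). The Confine libraries were above all Ctrl libraries but further apart from each other than the Ctrl libraries were. The log2 fold change was 0.37 (SE 0.18, 95% interval -0.01 to 0.75, edgeR adjusted p = 0.158), and with scaling by library size only it was 0.16.

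Dgat2 encodes an unrelated enzyme for the same reaction, which can also sit on the droplet surface. It lies on the minus strand of chromosome 7 (chr7:99153658-99182719, GRCm38, identifier ENSMUSG00000030747.5). Ctrl 1, 2 and 3 had 125, 103 and 73 counts (4.32, 3.89 and 3.10 CPM), and Confine 1/2 and 3 had 514 and 611 counts (17.4 and 24.3 CPM). The groups did not overlap, with means of 3.77 ± 0.616 CPM (SD, n = 3) and 20.8 ± 4.87 CPM (SD, n = 2). Confine exceeded Ctrl by a log2 fold change of 2.46 (SE 0.23, 95% interval 1.96 to 2.95, edgeR adjusted p = 4.43e-07), a fold of 5.49 with an interval of 3.90 to 7.73. Neither Dgat gene shares a stretch of at least 100 bp at 95% identity with another gene.

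Set on the TPM scale, the order of the members by level changed between the groups. In Ctrl, Plin2 (232 ± 32.8 TPM, SD, n = 3) came first, followed by Plin3 (161 ± 34.0 TPM), whose range overlapped that of Plin2, and Hilpda (108 ± 11.3 TPM). Dgat1 followed at 30.4 ± 1.54 TPM, then Pnpla2, Abhd5 and Plin4 at 19.9, 17.9 and 15.98 TPM with overlapping ranges, and Lipe, Dgat2 and Mgll last at 3.44, 3.44 and 3.25 TPM, also overlapping. In Confine, Hilpda (968 ± 85.5 TPM, SD, n = 2) came first and Plin2 (384 ± 42.5 TPM) next, ahead of Plin3 (169 ± 12.8 TPM) and Dgat1 (33.1 ± 5.18 TPM). Pnpla2, Dgat2, Abhd5 and Mgll, at 16.6, 15.9, 13.3 and 12.2 TPM, each overlapped the next in this order, while Plin4 (9.21 TPM) and Lipe (4.33 TPM) stood below them.

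Ratios within a library, which do not depend on how libraries are scaled, set partners of the pathway beside each other. The Hilpda to Pnpla2 ratio of TPM, inhibitor to lipase, was 5.38, 7.86 and 4.01 in Ctrl 1, 2 and 3 and 63.3 and 53.5 in Confine 1/2 and 3. The Mgll to Pnpla2 ratio was 0.123, 0.215 and 0.163 in Ctrl and 0.643 and 0.826 in Confine. The Dgat2 to Dgat1 ratio was 0.136, 0.115 and 0.0898 in Ctrl and 0.369 and 0.619 in Confine. For these 3 ratios the groups did not overlap, and each had p = 0.1 in a two-sided exact permutation test on the log2 ratio, the smallest p possible, so that none can pass a threshold of 0.05 in this design or after adjustment over the 5 ratios computed. The differences of the mean log2 ratio were 3.39, 2.16 and 2.09. The Abhd5 to Pnpla2 ratio (0.977, 1.09 and 0.713 in Ctrl, 0.864 and 0.735 in Confine) and the Lipe to Pnpla2 ratio (0.131, 0.220 and 0.175 in Ctrl, 0.190 and 0.329 in Confine) overlapped between the groups, with p = 0.5 and p = 0.4 in the same exact test.

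**Figure D4:**
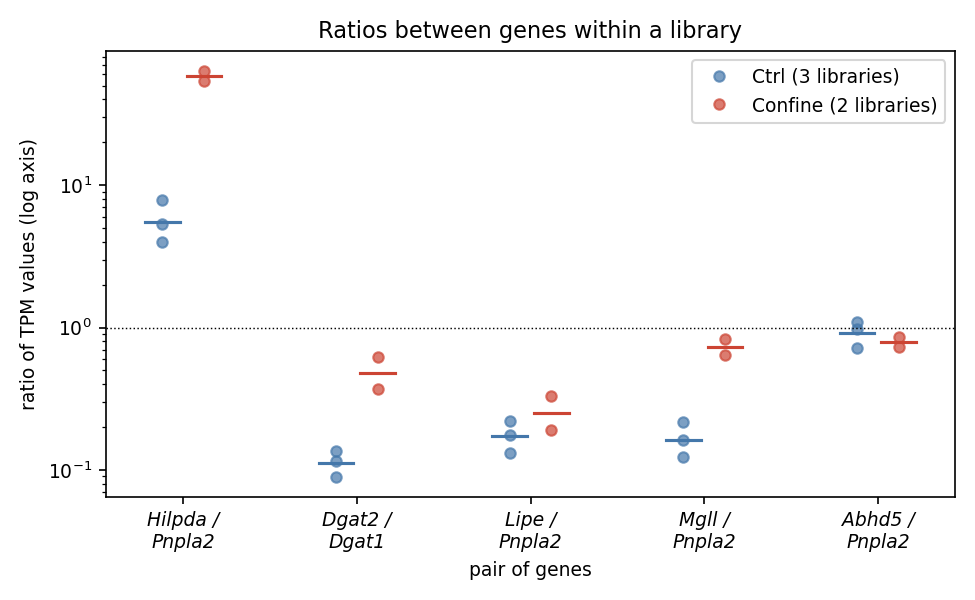
The vertical axis gives the ratio of TPM values within a library on a log scale for 5 pairs of genes, with 1 point for each of the 3 Ctrl and 2 Confine libraries and a dotted line at 1. The Hilpda to Pnpla2 ratio lies between 4.01 and 7.86 in Ctrl and at 53.5 and 63.3 in Confine, and the Abhd5 to Pnpla2 ratios of the groups overlap.

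Other genes of lipid storage and use were counted by list, to be read beside the 12.8% of all genes that rose and the 10.2% that fell. Of 22 further coat and assembly genes in the table, 15 were tested, 1 rose and 2 fell, and their median log2 fold change was -0.05. Tmem159 (promethin), a partner of seipin at sites of droplet formation, rose from 266, 224 and 223 counts in Ctrl to 451 and 436 in Confine (log2 fold change 0.85, standard error 0.20, edgeR adjusted p = 0.00508). Mettl7a1, a droplet-associated methyltransferase, fell by 1.22 on the log2 scale (edgeR adjusted p = 0.0055), and Vps13a, a lipid transfer protein at membrane contacts, fell by 0.77 (edgeR adjusted p = 0.0126). Without Confine 1/2, the edgeR adjusted p was 0.120 for Mettl7a1 and 0.151 for Vps13a, and without Confine 3 it was 0.0613 for Vps13a and 0.0847 for Tmem159.

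Of the genes that supply diacylglycerol to Dgat1 and Dgat2, 14 were tested, 3 rose and 2 fell, with a median of -0.06. Lpin3, a phosphatidate phosphatase that makes diacylglycerol, had 344, 208 and 290 counts in Ctrl and 915 and 664 in Confine (log2 fold change 1.42, standard error 0.22, edgeR adjusted p = 8.17e-05). Its relative Lpin1 also rose (0.65, edgeR adjusted p = 0.0432), as did the acyltransferase gene Agpat5 (0.66, edgeR adjusted p = 0.0171). The edgeR adjusted p of Lpin1 was 0.209 without Ctrl 1 and 0.500 without Confine 3, and that of Agpat5 was 0.0873 without Ctrl 3, 0.185 without Confine 1/2 and 0.0690 without Confine 3. Gpd1l, related to glycerol 3-phosphate dehydrogenase, had 303, 250 and 205 counts in Ctrl and 69 and 99 in Confine and fell by 1.61 (edgeR adjusted p = 2.55e-04), and the glycerol kinase gene Gk fell by 1.04 (edgeR adjusted p = 0.00425, and 0.0569 without Confine 1/2).

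Of the other hydrolases and regulators of lipolysis, 13 were tested, 2 rose and 2 fell, with a median of 0.08. Hcar2, a receptor for niacin and hydroxybutyrate that restrains lipolysis in adipocytes and is also found on macrophages, had 5, 3 and 3 counts in Ctrl and 97 and 73 in Confine (log2 fold change 4.43, standard error 0.47, edgeR adjusted p = 1.60e-06). Its Ctrl values rest on few reads. Of the 3 tested macrophage markers, Cd68 rose by 2.67 (edgeR adjusted p = 3.94e-07) and Csf1r rose by 1.45 (edgeR adjusted p = 0.0367). Csf1r had 20, 14 and 8 counts in Ctrl and 34 and 44 in Confine. Lyz2 fell by 2.64 (edgeR adjusted p = 3.53e-05), while Ptprc, Adgre1, Itgam and Aif1 had at most 2 counts in any library. Prkar2b, a regulatory subunit of protein kinase A, had a log2 fold change of 0.50 with an edgeR adjusted p of 0.0499, and this call was lost in 9 of 14 alternatives. Its edgeR adjusted p was 0.142 without Ctrl 1, 0.130 without Ctrl 3, 0.173 without Confine 1/2 and 0.284 without Confine 3. Fabp5, a fatty acid binding protein, fell by 0.88 (edgeR adjusted p = 0.00201, and 0.0606 without Confine 1/2).

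Among 8 genes listed for the sterol esters, the other lipid that droplets store, all were tested, 2 rose and 2 fell, with a median of -0.02. The list also holds Abca1, Abcg1 and Acat2, which neither make nor hydrolyse sterol esters, so these counts are not of ester enzymes alone. Soat1, which makes cholesterol esters, had 2120, 2590 and 1533 counts in Ctrl and 6237 and 5291 in Confine (log2 fold change 1.42, standard error 0.19, edgeR adjusted p = 2.57e-05). Nceh1, which hydrolyses these esters, fell by 0.94 (edgeR adjusted p = 0.0096, and 0.151 without Confine 1/2). The cholesterol exporter gene Abca1 rose by 1.99 (edgeR adjusted p = 0.00444, and 0.0511 without Confine 1/2) from at most 16 counts in Ctrl to 51 and 40 in Confine, and Acat2, a thiolase that makes acetoacetyl-CoA, fell by 1.29 (edgeR adjusted p = 3.74e-05). Lipe, described above, also belongs to this list.

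Of the genes for fatty acid uptake and activation, 14 were tested, 3 rose and 4 fell, with a median of -0.19. Lpl, the secreted lipase that frees fatty acids from lipoproteins, had 1102, 698 and 827 counts in Ctrl and 225 and 111 in Confine and fell by 2.46 (SE 0.26, edgeR adjusted p = 1.35e-06). The lipoprotein receptor gene Vldlr rose by 1.60 (edgeR adjusted p = 1.07e-04), the fatty acid transporter gene Slc27a4 rose by 0.96 (edgeR adjusted p = 6.17e-04), and Acsbg1, an acyl-CoA synthetase, rose by 3.73 from at most 12 counts in Ctrl to 91 and 78 in Confine (edgeR adjusted p = 2.52e-05). Acsl5, another acyl-CoA synthetase, fell by 1.27 (edgeR adjusted p = 9.55e-05), and Dbi, which binds acyl-CoA, fell by 0.74 (edgeR adjusted p = 0.0128, 0.147 without Confine 1/2 and 0.0629 without Confine 3). The fatty acid receptor gene Cd36 had no counts in any library.

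Of the genes for fatty acid oxidation, 23 were tested, 3 rose and 2 fell, none past the cutoff of 1.5, and the median was -0.13. Cpt2, of the carnitine shuttle, rose by 0.61 (edgeR adjusted p = 0.0269) and the peroxisomal thiolase gene Acaa1a by 0.68 (edgeR adjusted p = 0.0290). Echs1 and Etfb, of the mitochondrial pathway, fell by 0.56 and 0.54 (edgeR adjusted p = 0.0407 and 0.0445). These calls depended on the fit. With scaling by library size only 0 of the 23 rose and 4 fell, and without Confine 3 0 rose and 0 fell. Without Ctrl 1, 1 rose and 0 fell, and without Ctrl 3 or without Confine 1/2, 2 rose and 0 fell. Each of Cpt2, Acaa1a, Echs1 and Etfb lost its call in 5 or 6 of 14 alternatives. Over the 6 lists, 14 genes rose and 13 fell, each gene counted once, and with scaling by library size only these counts were 8 and 20.

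**Figure D5:**
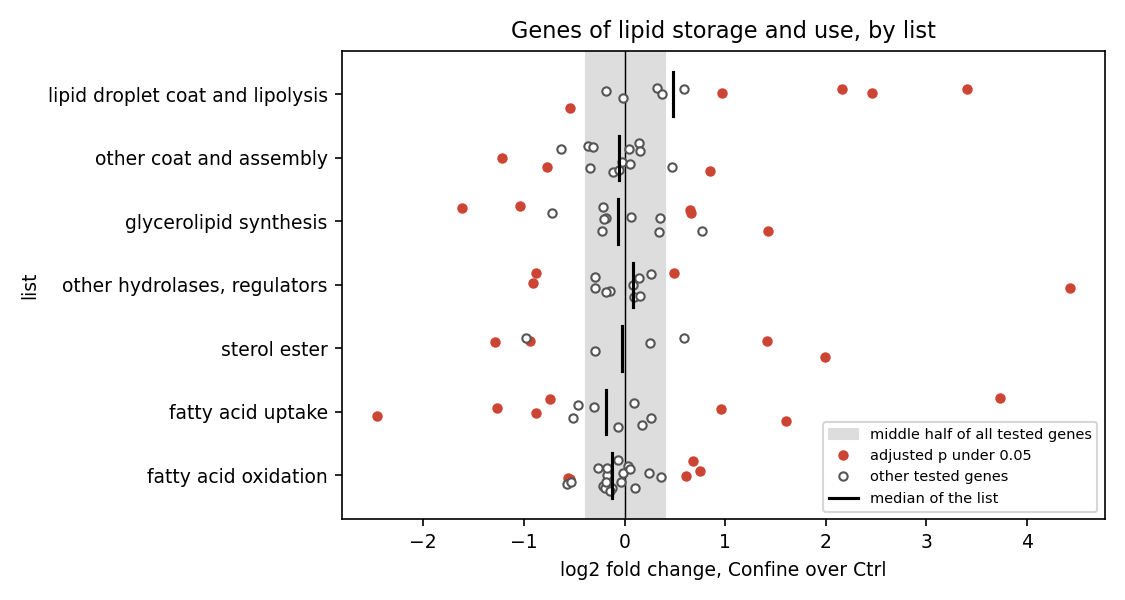
Each point is a tested gene, filled where the adjusted p was under 0.05, of the 10 members (top) or of one of the other lists on the vertical axis, and the horizontal axis gives its log2 fold change of Confine over Ctrl, with black ticks for list medians and a grey band between the quartiles of all genes. Points lie on both sides of 0 in every list, with Hcar2 at 4.43 and Lpl at -2.46 among the genes farthest out.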

How the data were processed

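Poly(A)-selected RNA of MEFs was sequenced for the authors by a company, with a dUTP protocol that keeps the strand. The deposited counts are whole reads per gene, not normalized, made by the authors, per the submitters' processing notes, with Trim Galore 0.6.10, HISAT2 2.1.0, SAMtools 1.5 and featureCounts against mm10. The strand setting and the annotation are not given in the sources used here, which bears on genes with an antisense partner. Columns not used numbered 0. Identifiers were named and placed with GENCODE M21 (54587 of 55335 matched with version, 55154 without).

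The members and lists were chosen with earlier results of these data known. Genes kept by filterByExpr were normalized by TMM and tested with glmQLFit and glmQLFTest (edgeR 4.0.16, R 4.3.3, 3 Ctrl against 2 Confine libraries, 3 residual degrees of freedom), with Benjamini-Hochberg adjustment over all genes and no list-wise adjustment. Calls required an adjusted p under 0.05, and for the stricter rule an absolute log2 fold change above 1.5 as well. The study states the same limits without saying whether its P is adjusted. Permutation tests used log2(CPM + 1). TPM used GENCODE exon lengths. The floor of 3 counts covers counting error only. Sequence copies were sought with blastn 2.17.0 (at least 100 bp at 95% identity). Named were all members, Plin1, Plin5 and G0s2, and from each list the genes past both cutoffs and up to 4 per direction past the first, some of which are not reported here. Cd36 and marker genes were named in addition after their values were seen. On simulated counts at the depths of these libraries (15881 genes), 61% of 100 genes changed by 1 on the log2 scale were recovered. Of 100 genes changed by 2, 84% were recovered, and 3.97% of calls were false. Only these genes changed, as many up as down, against 23.0% of genes called in the data. Each simulated gene took its spread from the fitted trend, and TMM factors were left out. The rates in the real data may therefore differ. Alternatives were DESeq2 1.42.0, limma-voom (limma 3.58.1), other normalizations and filters, glmTreat, a replicate block, the identical columns counted as 2 samples, and each library left out.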

Additional observations from a re-analysis of the deposited data

How the results depend on the processing

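Plin2, Hilpda, Mgll and Dgat2 stayed higher in Confine, with adjusted p under 0.05, in all 14 alternatives fitted without a test against the cutoff, with log2 fold changes of 0.76 to 1.05, 3.20 to 3.48, 1.91 to 2.39 and 2.20 to 2.68. The call of Plin4 was lost, leaving 0 members lower, without a filter on low counts (log2 fold change -0.55, adjusted p = 0.058) and with 1 of 2 replicate blocks. Lipe passed without Ctrl 3 (0.79, adjusted p = 0.0427) or without Confine 1/2, and Dgat1 passed with the identical columns counted as 2 samples (0.40, adjusted p = 0.0306). Pnpla2 changed sign under limma-voom (0.0185), and ran from -0.18 to 0.17 with 1 library left out. The cause of these changes was not tested.

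With library size only, 2805 genes were lower, and 8 list genes rose and 20 fell. The filter of at least 10 counts in every library, which drops genes with few counts in either group, left 479 genes higher past the cutoff. Under glmTreat, 289 were higher and 68 lower. With the identical columns as 2 samples, 2456 genes were lower. With 1 library left out, 1196 to 2411 genes were higher and 850 to 2015 lower, 0 to 1 members were lower, and 7 to 14 list genes rose and 4 to 14 fell. The lowest of these came without Confine 3 (1196 and 7) and without Confine 1/2 (850 and 4). A lone Confine library is assumed to vary like the Ctrl libraries. On CPM without length, Plin2 made up 53.9% and 66.0% of perilipin counts in Ctrl and Confine, Plin4 6.19% and 2.62%, and Plin3 31.4% in Confine.

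Deviations of samples of the same number from their group means correlated at -0.083 to 0.094. With 2 Confine libraries, the deviations of one are those of the other with the sign reversed. These correlations therefore cannot decide whether samples of the same number were paired. The shared library carries the numbers 1 and 2. With a replicate block and this library as number 2, 1448 genes were higher and 1080 lower, 9 list genes rose and 10 fell, Plin4 had a log2 fold change of -0.63 (adjusted p = 0.106) and Pnpla2 one of 0.0113. As number 1, 2640 were higher and 2293 lower, and the call of Plin4 held (-0.49, adjusted p = 0.0246). Of the fatty acid oxidation list, the block with number 2 left 0 genes higher and 0 lower.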
